A study of Bos taurus with 28 samples.

Results

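miR-181a and miR-181b are 2 of the 132 miRNAs measured in extracellular vesicles (EVs) of bovine raw milk. Their rows, bta-miR-181a and bta-miR-181b, were chosen by name with earlier results of these data known, namely the log2 levels by cow, which stood higher in Cow 3 than in the other cows. Levels are in log2 CPM, the reads of a miRNA scaled to a common library size. Small RNA was sequenced in 28 libraries from 4 dairy cows (Bos taurus) whose test for mastitis was negative at entry, 14 from morning and 14 from evening milkings. Each morning library has an evening library of the same cow and day, which gives 14 pairs. Cow 1 (days 1, 3 and 4) and Cow 3 (days 1, 2 and 4) each gave 6 libraries, and Cow 2 and Cow 4 (days 1 to 4) each gave 8. All EVs came from skimmed milk, from which fat, cells, large vesicles and casein had been removed, and no treatment is named for any cow. The somatic cell count (SCC), the number of cells per mL of milk, was recorded at every milking and ran from 18000 to 300000 cells/mL over the sequenced samples.

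miRNAs are short RNAs that bind messenger RNAs through a seed near their 5′ end and lower the output of those messages. The miR-181 family is known from lymphocytes. In mice, miR-181a is abundant in developing thymocytes, where it sets the sensitivity of the T cell receptor, and its expression in blood progenitors favours B lineage cells. miR-181a and miR-181b share the family seed and differ in a few bases outside it. In the bovine RefSeq annotation (ARS-UCD2.0), each has 2 loci, and each locus of miR-181a has a locus of miR-181b as its neighbour among the miRNA genes. The other family members, miR-181c and miR-181d, were looked for and were not among the 132 miRNAs. How reads that match both members were assigned is not given in the sources used here, and the reads do not tell which locus they came from.

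Both members had reads in all 28 libraries. A library held 106 to 1117 reads of miR-181a (median 256) and 15 to 142 reads of miR-181b (median 49). These were 0.0654% to 0.757% and 0.0131% to 0.111% of all miRNA reads of a library, whose total over the 132 miRNAs was 101968 to 325211 (median 158620). A count of 3 reads, the limit that a count of 0 allows, stood at 8.35 to 32.4 CPM, depending on the library. The lowest count, the 15 reads of miR-181b in Cow 2 on day 1 in the morning, therefore lay above that limit. Such limits and intervals cover counting error only.

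By cow, miR-181a had a lowest, median and highest level of 9.71, 10.34 and 10.56 log2 CPM in Cow 1, and of 9.79, 10.26 and 11.03 in Cow 2. In Cow 3 these were 11.27, 12.01 and 12.64, and in Cow 4 they were 9.90, 10.24 and 10.74. The 6 libraries of Cow 3 lay above all 22 others. Cow 3 had a mean of 12.00 ± 0.47 log2 CPM (SD, n = 6 libraries). Cow 1 averaged 10.28 ± 0.30 (n = 6), Cow 2 averaged 10.39 ± 0.47 and Cow 4 averaged 10.31 ± 0.30 (both n = 8). The last 3 means spanned 0.11, which is less than the SD within any cow, so that these cows have no order beyond their spread. Cow 3 stood 3.19-fold above the mean of the other cows, a log2 difference of 1.67 (standard error 0.21).

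miR-181b was the less abundant member and showed the same separation. Its lowest, median and highest levels were 9.05, 9.52 and 9.70 log2 CPM in Cow 3, and 7.83, 8.21 and 8.68 in Cow 1. They were 7.21, 7.92 and 8.81 in Cow 2, and 7.66, 8.01 and 8.52 in Cow 4. Again no library of another cow reached the lowest one of Cow 3. The nearest was the evening library of Cow 2 on day 3, at 8.81 against 9.05 in Cow 3 on day 2 in the morning. Cow 3 averaged 9.45 ± 0.26 log2 CPM (SD, n = 6) and Cow 1 averaged 8.23 ± 0.27 (n = 6). Cow 4, at 8.06 ± 0.29, and Cow 2, at 7.93 ± 0.54, were lowest (both n = 8). Set against Cow 1, Cow 3 was higher by 1.23 on the log2 scale (standard error 0.15). Against Cow 2 the gap was 1.52 (0.22), and against Cow 4 it was 1.40 (0.15). Among the 132 miRNAs ordered by mean level, miR-181b held rank 60 in Cow 3, whereas its rank elsewhere was 76 to 79.

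**Figure D1:**
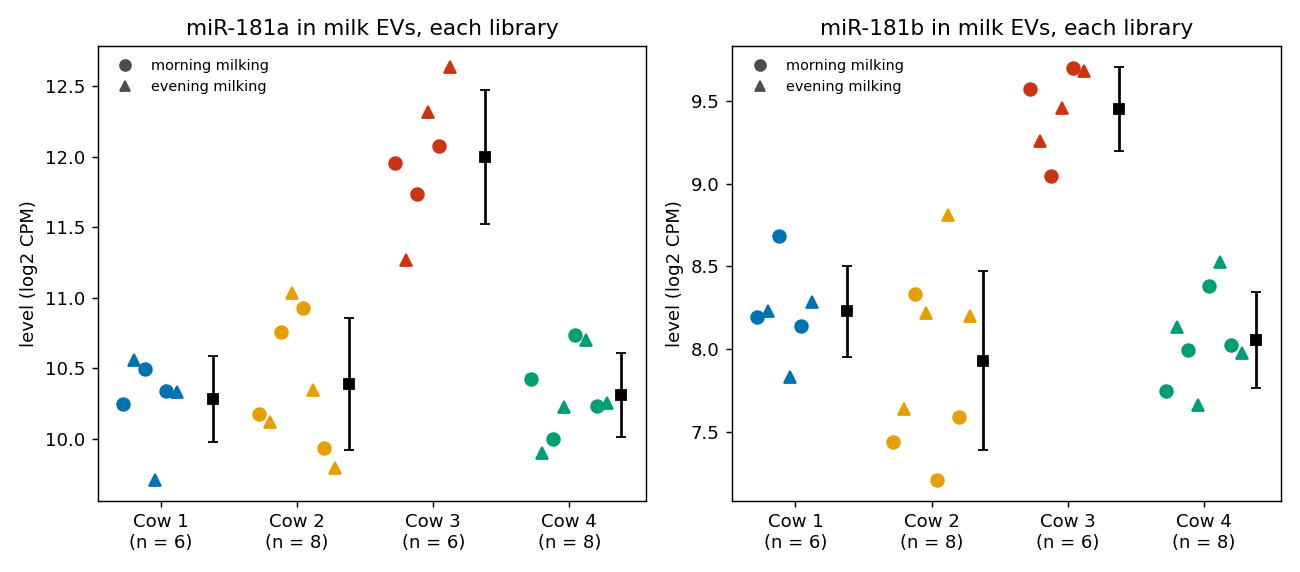
Level of miR-181a (left) and miR-181b (right) in log2 CPM in each library, by cow (circles for morning, triangles for evening milkings, squares with bars for the mean and SD of the libraries of a cow). The vertical axes differ and do not start at 0, and in both panels the 6 libraries of Cow 3 lie above the 22 libraries of the other cows.

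All 6 libraries of Cow 3 lay above every other library for 3 of the 132 miRNAs (2.27%), namely both members and the bovine-numbered miR-2401, and below every other library for 0.758%, which is 1 miRNA and no member. The members were chosen with this contrast known, so these values describe them and no test was applied. The libraries of a cow are milkings of 1 animal, and with 1 animal that stands apart a property of the cow cannot be told apart from any other cause shared by its libraries. In EV preparations, more vesicles from one kind of cell and more of a miRNA in each vesicle also cannot be told apart.

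The other miRNAs known from immune cells did not stand above the mean of the other cows in Cow 3. Of miR-155, which is induced in activated lymphocytes and macrophages, miR-146b, which dampens inflammatory signalling, miR-21-5p, which is widely raised in inflammation, and miR-342, which is enriched in lymphocytes, the mean level of Cow 3 was below the mean of the other cows for 4 of 4. The median log2 difference of these 4 was -0.57. Over all 132 miRNAs the median was -0.03, and 64 were higher in Cow 3. Cow 3 averaged 7.68 log2 CPM of miR-342, below the 8.35 to 8.80 found elsewhere. Its mean for miR-155, which had only 175 reads in all libraries, was 4.87, beside 5.05 to 6.12. For miR-21-5p it was 14.62, beside 14.88 to 15.15. For miR-146b the mean of Cow 3, 6.67, lay above the 6.39 of Cow 2 and below the 6.86 and 7.06 of Cow 4 and Cow 1, a difference of -0.09 from their mean. The lymphocyte miRNA miR-150, miR-142 of blood cells in general and miR-223 of myeloid cells were looked for and were not among the 132 miRNAs. No cell type was assigned to the members.

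Among miRNAs of other cell types, the 4 listed for red blood cells (miR-15b, miR-16a, miR-16b and miR-185) had mean levels in Cow 3 that were 0.18 to 0.87 above the mean of the other cows on the log2 scale (median 0.58). Of all 132 miRNAs, 64 were higher in Cow 3. The red blood cell miRNAs miR-451 and miR-486 were not among the 132 miRNAs either, and no cell type was assigned from this list. The 6 epithelial ones (miR-200a, miR-200b, miR-200c, miR-141, miR-429 and miR-375) lay between -0.11 and 0.24 (median -0.02). Of the 4 stromal ones, miR-10b and miR-143 were lower by 1.45 and 1.29 on the log2 scale, while miR-99a-5p and miR-125b lay 0.31 and 0.11 higher. miR-10b had only 131 reads in all libraries and 0 reads in 10 of them. Its Cow 3 mean of 3.68 lay near the 3.55 at which 0 reads stand, beside 4.14 in Cow 2 and 6.30 in Cow 1. None of the red blood cell, epithelial and stromal miRNAs, nor of the 4 of immune cells, had all Cow 3 libraries above or below those of the other cows. The part of these cell types in the level of the members was not tested.

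The circadian question of the study was addressed by comparing the sessions within cows. From morning to evening, miR-181a changed by -0.06 in log2 CPM (standard error 0.15, 95% interval -0.36 to 0.24), with an adjusted p of 0.996 in limma with cow as a covariate. The evening library was the higher one in 6 of 14 pairs. miR-181b changed by 0.13 (standard error 0.15, interval -0.18 to 0.44, adjusted p = 0.996 in limma), with the evening library above the morning one in 8 of 14 pairs. No miRNA of the 132 passed a false discovery rate (FDR) of 5% in this limma test, which is 0% of those tested. At an unadjusted p below 0.05 there were 2, and none passed the FDR with limma-voom on read counts. For each member the session difference was smaller than the spread between milkings.

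The changes within single days were larger than these means. For miR-181a the evening minus morning difference was -0.79 in Cow 1 on day 3, -0.69 in Cow 3 on day 1, -0.59 in Cow 2 on day 3 and -0.53 in Cow 4 on day 1. It was 0.59 and 0.56 in Cow 3 on days 2 and 4, and between -0.14 and 0.32 in the other 8 pairs. For miR-181b the largest differences were 1.61 in Cow 2 on day 3, -0.85 in Cow 1 on day 3 and 0.61 in Cow 2 on day 4. The other 11 lay between -0.33 and 0.41. In the Cow 2 pair of day 3, miR-181b had the 10th largest change of the 132 miRNAs, and 27 miRNAs changed by more than 1.

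Both members moved in the same direction in 4 of the 14 pairs and in opposite directions in 10. The same direction was found in Cow 1 on days 1 and 3, and in Cow 3 on days 1 and 2. In Cow 2 they moved apart in all 4 pairs, as they did in Cow 4. Some of these directions rest on changes near 0. Examples are -0.006 for miR-181a in Cow 1 on day 4 and -0.017 for miR-181b in Cow 3 on day 4. In Cow 4 on day 4 the changes were 0.018 and -0.049. Counting error alone gives miR-181b an SD of 0.22 in a library, so the counts of pairs describe signs only. For Cow 1 to Cow 4 in order, with 3, 4, 3 and 4 pairs, the mean session difference of miR-181a was -0.16 ± 0.57, -0.13 ± 0.36, 0.15 ± 0.73 and -0.08 ± 0.32 (SD). For miR-181b it was -0.22 ± 0.55, 0.58 ± 0.75, 0.02 ± 0.36 and 0.04 ± 0.30. The limma test of whether the session difference depends on the cow gave F = 0.19 for miR-181a and F = 1.32 for miR-181b, both with an adjusted p of 0.969. None of the 132 miRNAs (0%) passed this interaction test, with 1 at an unadjusted p below 0.05 and none with limma-voom.

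Collection day was compared with cow as a covariate. For miR-181a the log2 differences from day 1 were 0.28 on day 2, 0.33 on day 3 and 0.12 on day 4 (moderated F = 1.09, adjusted p = 0.759 in limma). For miR-181b they were 0.10, 0.32 and 0.17 (F = 0.74, adjusted p = 0.858 in limma). None of the 132 miRNAs (0%) passed the FDR in this limma test, with 14 at an unadjusted p below 0.05 and none with limma-voom. Both milkings of a day enter as separate libraries, and Cow 1 has no library of day 2 and Cow 3 none of day 3.

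The somatic cells of milk include leukocytes, whose number rises in inflammation of the udder. The slope of miR-181a per doubling of SCC was 0.08 in log2 CPM (standard error 0.09, 95% interval -0.11 to 0.26, adjusted p = 0.780 in limma with cow as a covariate). For miR-181b it was 0.10 (standard error 0.09, interval -0.09 to 0.29, adjusted p = 0.666 in limma). Neither slope passed the test, whereas 3 of the 132 miRNAs (2.27%) did in limma. Of the red blood cell, epithelial and stromal miRNAs, 1 passed, the epithelial miR-141, with a slope of -0.31 (standard error 0.08, adjusted p = 0.0321 in limma), and no miRNA passed with each cow and day pair as a block. None of the 4 other immune cell miRNAs passed, the largest slope among them being that of miR-146b at 0.24 (standard error 0.12, adjusted p = 0.371 in limma).

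In the 2 libraries from milk above 200000 cells/mL, miR-181b stood at the highest level of the cow, with 8.68 log2 CPM in Cow 1 on day 3 in the morning and 8.81 in Cow 2 on day 3 in the evening (300000 cells/mL). The other milkings of those days went the other way. With 190000 cells/mL, Cow 1 had its lowest level of both members in the evening, 9.71 for miR-181a and 7.83 for miR-181b. In the morning of day 3, Cow 2 had its lowest miR-181b, 7.21, while its miR-181a was 10.93. The SCC of that milking was below that of the evening, yet above those of all Cow 2 milkings on the other days. Without both libraries above 200000 cells/mL the slope of miR-181b turned to -0.12 (adjusted p = 0.693 in limma), and without the evening library of Cow 2 on day 3 alone it was -0.018. Cow 3, which had the most of both members, had an SCC of 28000 to 53000 cells/mL in its sequenced milkings, below the maximum of each other cow.

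**Figure D2:**
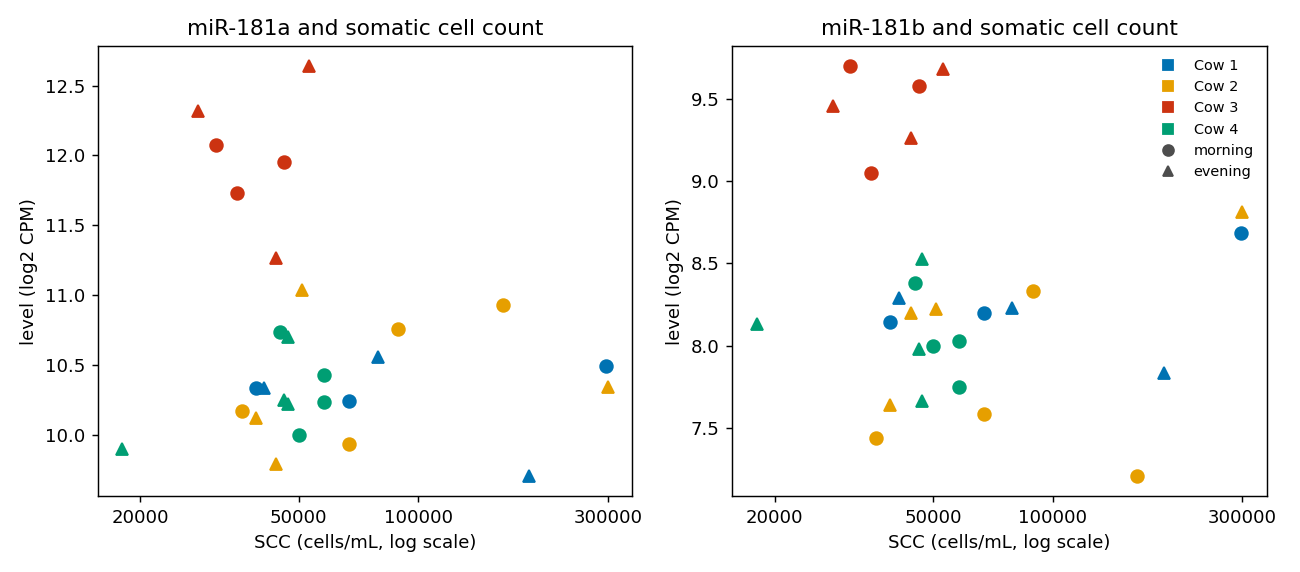
Level of miR-181a (left) and miR-181b (right) in log2 CPM against the SCC of the same milking in cells/mL (log scale), 1 point for each of 28 libraries, coloured by cow. The 6 libraries of Cow 3 are highest in both panels at 28000 to 53000 cells/mL, and both points near 300000 cells/mL hold the highest miR-181b of Cow 1 and of Cow 2.

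The ratio of both members was taken as the log2 level of miR-181a minus that of miR-181b, which removes most of the scaling of the library. As 0 reads stand at 11.7 CPM in these levels, it lies below the ratio of the reads. In Cow 2 on day 3 in the morning it was 13.2, beside 14.2 from the reads. Over all libraries, 9261 reads of miR-181a stood against 1710 of miR-181b, a ratio of 5.42. The ratio compares read numbers, which also depend on how well each RNA enters a library. The log2 ratio was lowest in Cow 1, at 2.05 ± 0.19 (SD, n = 6), and reached 2.25 ± 0.29 in Cow 4 (n = 8). It was 2.46 ± 0.70 for Cow 2 (n = 8) and 2.54 ± 0.36 for Cow 3 (n = 6). Neighbours in this order differed by less than the larger SD of the pair, while its ends, Cow 3 and Cow 1, differed by 0.49 (standard error 0.17). The ratio of Cow 3 was 0.29 above the mean of the other cows (standard error 0.17), small beside the differences of 1.67 and 1.38 of the members themselves.

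The ratio varied most in Cow 2. On day 3 it went from 14.2 reads of miR-181a per read of miR-181b in the morning (95% exact counting interval 8.92 to 24.0) to 2.94 in the evening (2.26 to 3.85). The morning library held 270 reads of miR-181a and 19 of miR-181b, and the evening library 226 and 77. These are the highest and the lowest ratio of all 28 libraries, and their intervals do not overlap. In that morning library 24 of the 132 miRNAs lay more than 1 from the mean of the other Cow 2 libraries on the log2 scale, against 4 to 31 over the 28 libraries. In Cow 1 the ratio stayed between 3.58 and 5.20, and the intervals of its 6 libraries all overlapped.

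The session difference of the log2 ratio was -0.19 ± 0.73 (SD, n = 14 pairs, p = 0.384 in an exact permutation of the pair signs, two-sided), and it was above 0 in 7 pairs and below 0 in the other 7. Without the Cow 2 pair of day 3 it was -0.04 ± 0.46 (exact permutation p = 0.769). The slope of the log2 ratio on SCC was -0.024 per doubling with cow means removed (r = -0.046, rho = -0.034, permutation p = 0.850 and 0.884). Without the 2 libraries whose SCC lay farthest from the median, r was 0.322. The slope became 0.13 without the Cow 2 evening library of day 3 (permutation p = 0.240).

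**Figure D3:**
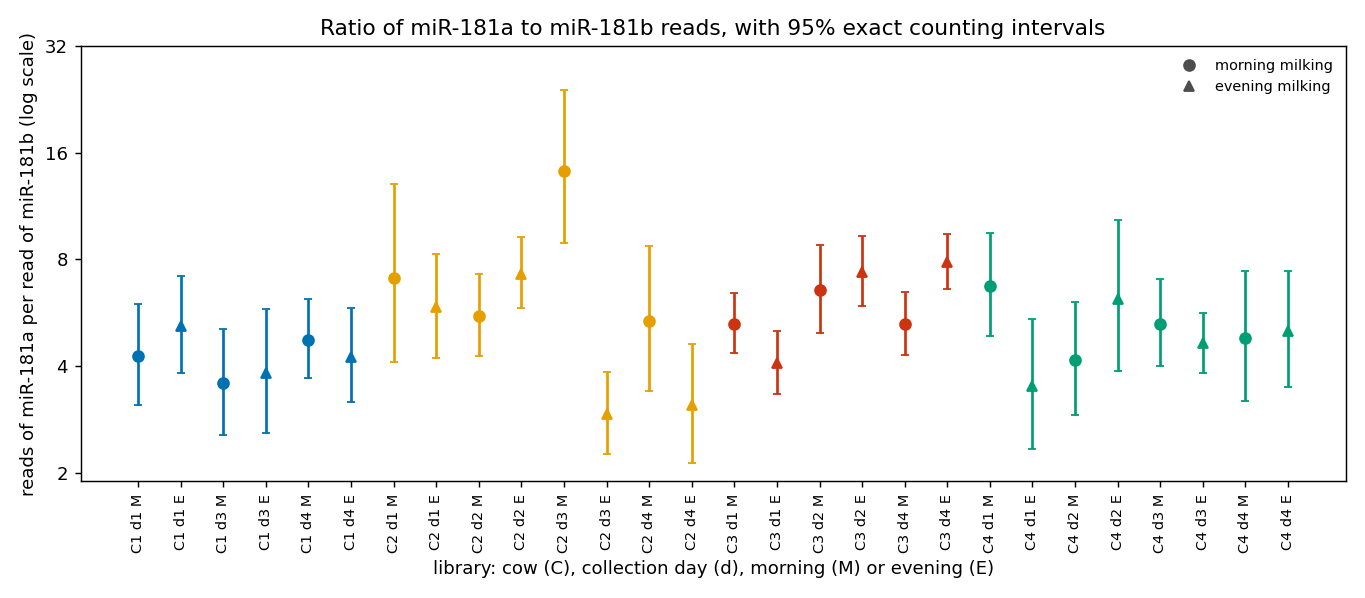
Reads of miR-181a per read of miR-181b in each library (log scale), in order of cow and day, with 95% exact counting intervals, coloured by cow. The morning and evening libraries of Cow 2 on day 3 are the highest (14.2) and the lowest (2.94), and the other 26 lie between 3.11 and 7.87.

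Within cows, the spread between libraries was 0.39 for miR-181a, 0.37 for miR-181b and 0.45 for the ratio (SD in log2, 24 degrees of freedom). Counting error alone would give 0.10, 0.22 and 0.24. It thus equals 6.05% of the variance of miR-181a within cows, 34.7% of that of miR-181b and 28.8% of that of the ratio, so that miR-181b is the less precise member. Of the variance over all libraries, the cows took 77.9% for miR-181a and 73.9% for miR-181b, which the choice of the members had used, and 15.9% for the ratio. Session took 0.147%, 0.957% and 4.50% of the variance of miR-181a, miR-181b and the ratio, and day 2.76%, 2.79% and 3.14%.

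Over all 28 libraries, miR-181a and miR-181b had a Pearson r of 0.815, and each was the miRNA most like the other. This r rests on the separation of Cow 3, and no test was applied to it. With cow means removed, Pearson's r stood at 0.319 and Spearman's rho at 0.353, with permutation p-values of 0.154 and 0.0987, and r was 0.267 without the 2 libraries farthest from the median of miR-181a. For the cows 1 to 4 taken singly (n = 6, 8, 6 and 8 libraries), r was 0.777, 0.048, 0.673 and 0.515. The exact permutation p-values were 0.114, 0.909, 0.142 and 0.190, with a smallest adjusted p of 0.253 over the 4 cows. Spearman's rho was 0.600, 0.143, 0.657 and 0.333 in the same order (smallest adjusted p = 0.483 from the exact permutation test). Without the 2 libraries farthest from the median of miR-181a, r was 0.889, 0.413, 0.594 and -0.682, so that the relation in Cow 4 rested on those libraries.

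The within-cow r kept its side of the threshold in 8 of 12 alternatives, where it ran from 0.230 with quantile normalization to 0.397 with session means also removed, and in 27 of 28 fits that left out 1 library. The exception among the latter was the Cow 2 morning library of day 3, without which r was 0.514 (permutation p = 0.0130). Of the other 4 alternatives, r was 0.618 without Cow 2 (permutation p = 0.0061) and 0.415 with library medians set equal (permutation p = 0.0483). Without the whole Cow 2 pair of day 3 it was 0.585, for which no p is given, since that pair was left out after its values were seen. With both milkings of a day averaged it was 0.726 over the 14 pairs (permutation p = 0.0253), whereas the evening minus morning differences of the same pairs had an r of -0.035, a description with no test.

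**Figure D4:**
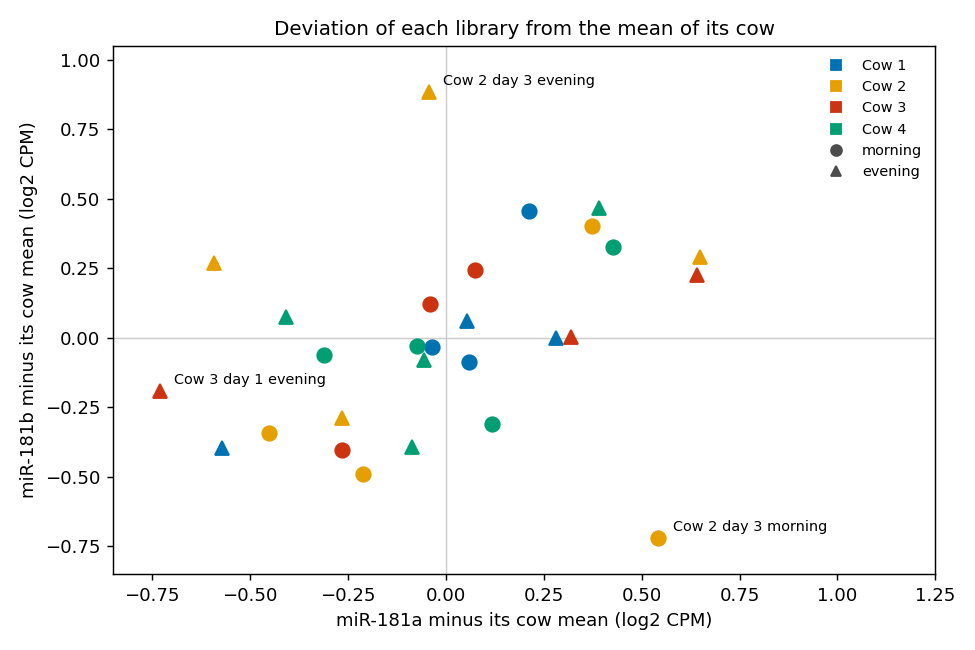
Deviation of miR-181b from its cow mean against that of miR-181a, both in log2 CPM, 1 point for each of 28 libraries, coloured by cow (circles for morning, triangles for evening). The Pearson r of these deviations is 0.319 (permutation p = 0.154). The morning and evening libraries of Cow 2 on day 3 lie at the lower right and at the top.

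The miRNAs whose levels followed the members within cows were ranked by Pearson r over the 28 libraries with cow means removed, as a description. All values of a library share its depth and the authors' scaling. Over the other 131 miRNAs, r with miR-181a ran from -0.689 to 0.711 (median 0.056) and r with miR-181b from -0.506 to 0.665 (median 0.036). By this measure miR-181b ranked 34 among the miRNAs like miR-181a, and miR-181a ranked 14 among those like miR-181b.

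miR-181a was followed most closely by the bovine-numbered miR-10174-3p (r = 0.711), miR-23a (0.681), miR-652 (0.675), miR-660 (0.612), the bovine-numbered miR-11976 (0.563) and miR-29a (0.561), a miRNA known to target collagens. Each of these 6 had an r above 0 in 4 of 4 cows. Their choice by r over the same libraries favours this, so it is no separate support. The weaker miR-141 (r = 0.195) also had an r above 0 in 4 of 4 cows. For miR-10174-3p, r was 0.449, 0.746, 0.969 and 0.546 for the cows 1 to 4. miR-11976 had a mean of only 4.82 log2 CPM, near the 3.55 at which 0 reads stand. With Spearman's rho, 5 of the 6 stayed among the first 6, and with library medians set equal 6 did. With quantile normalization 2 did, and r of miR-652 was then 0.285.

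miR-181b was followed by miR-22-3p (r = 0.665), miR-16b of the miR-15/16 family of cell cycle regulators (0.653), miR-93 (0.620), the ruminant miR-2284x (0.534), miR-664b (0.506) and miR-10174-3p (0.490). For miR-16b, r was 0.670, 0.682, 0.896 and 0.454 for the cows 1 to 4. With Spearman's rho and with library medians set equal, 5 of the 6 stayed among the first 6, and 6 did with quantile normalization. The lists of both members share 1 miRNA, miR-10174-3p.

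At the other end, both members ran most against miR-148d and miR-148a. miR-148d had an r of -0.689 with miR-181a and of -0.506 with miR-181b, and miR-148a had -0.600 and -0.382. Each was below 0 in 4 of 4 cows for both members. Their choice by r over the same libraries favours this, so it is no separate support. The weaker miR-340 (r of -0.174 and -0.108) was also below 0 in 4 of 4 cows for both members. The other miRNAs named miR-148 did not share the low values. Their r was -0.075 and 0.034 for miR-148b and -0.035 and 0.019 for miR-148c. The third lowest was let-7i for miR-181a (-0.589) and the low miR-320b for miR-181b (-0.361), whose r in Cow 1 was 0.274. miR-148a had a mean of 15.07 log2 CPM. The more abundant let-7a-5p, with a mean of 17.39, also ran against miR-181a (r = -0.448), but not against miR-181b (0.103). As CPM values are shares of a total, the part of such abundant miRNAs in these values was not tested. With cow means removed, r with the log2 read total was 0.296 for miR-181a and 0.398 for miR-181b, and r with the log2 normalization factor was 0.348 and 0.114. The part of depth and scaling was not tested either.

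**Figure D5:**
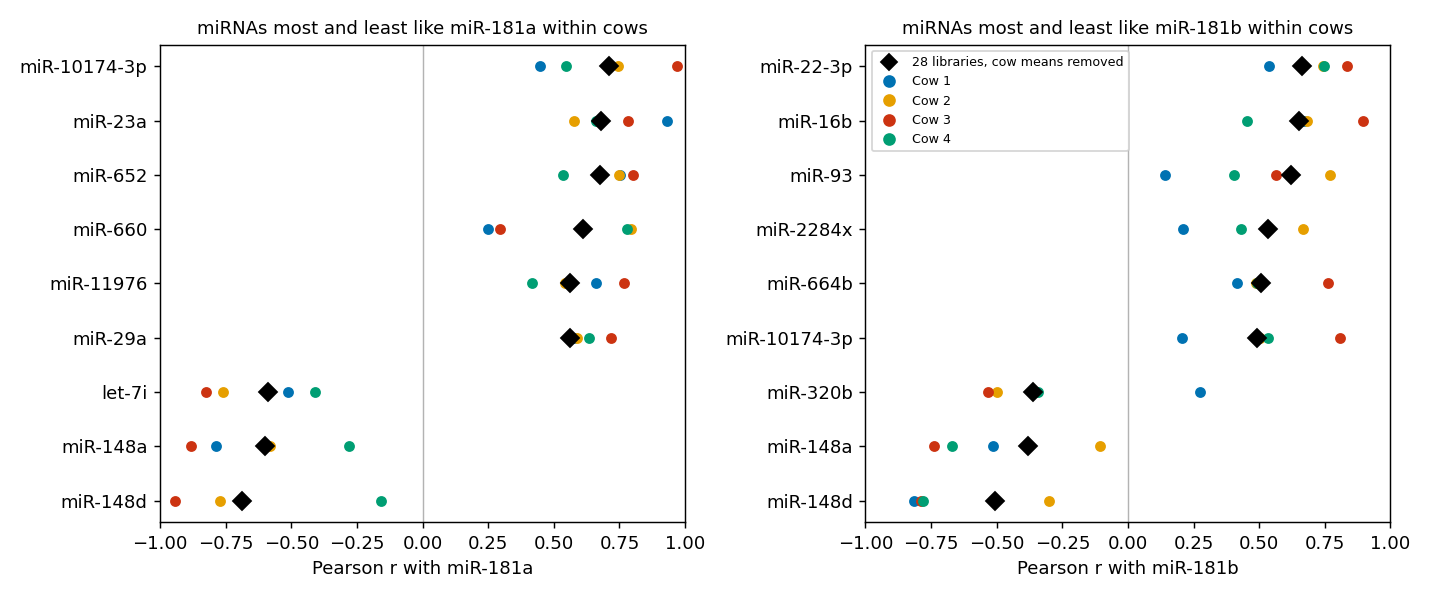
Pearson r with miR-181a (left) and miR-181b (right) of the 6 miRNAs with the highest and the 3 with the lowest value over the 28 libraries with cow means removed (black diamonds), and of the same miRNAs within each cow (coloured circles). miR-10174-3p, miR-148a and miR-148d stand in both panels, and miR-320b in Cow 1 lies on the other side of 0.

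None of the 4 other immune cell miRNAs was among the 6 of 131 miRNAs that followed either member most closely. So short a list would hold few of any 4 miRNAs, and miR-146b ranked 9 in likeness to miR-181b. With miR-181a, r was 0.332 for miR-342, 0.215 for miR-146b, -0.008 for miR-155 and -0.061 for miR-21-5p. With miR-181b, it was -0.076, 0.404, -0.312 and 0.106. The medians of these 4 were 0.104 with miR-181a and 0.015 with miR-181b. The 6 epithelial ones ran from -0.285 to 0.479 with miR-181a (median 0.193). With miR-181b they ran from -0.136 to 0.367 (median 0.080), and miR-200c was the highest of them for both members. Of the red blood cell miRNAs, r with miR-181b was 0.653 for miR-16b and between -0.08 and 0.19 for the other 3. The stromal ones ran from 0.059 to 0.313 with miR-181a and from -0.184 to 0.199 with miR-181b.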

How the data were processed

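Per the study's methods, reads were cleaned with Trim Galore! (quality, adapters, length, PCR duplicates), pooled into a table of distinct sequences, restricted by a CPM cut-off and assigned to the bovine mature miRNAs in miRBase, with isomiRs merged into the canonical form. The deposited values are log2 CPM, which the authors made with edgeR. No genome build is given in the sources used here. All 3696 values gave whole reads within a tolerance of 0.01. The authors' normalization factors, worked back from the values, ran from 0.696 to 1.35.

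limma 3.58.1 (R 4.3.3) was run on the deposited log2 values of 132 miRNAs with the mean-variance trend, two-sided tests, Benjamini-Hochberg adjustment and an FDR of 5%. Fits had cow as a covariate and session, log2 SCC, day or the interaction of cow and session as the term tested. The ratio and correlations were tested with exact tests or 100000 permutations within cows (20000 for alternatives) in Python 3.11.15 with scipy 1.17.1, numpy 2.4.6, pandas 2.3.3 and matplotlib 3.10.9. Permutations treat the milkings of a cow as exchangeable.

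Morning and evening libraries of the same cow and day are paired by their labels. With cow and session effects removed, their residuals correlated at 0.077 on average within pairs and at -0.203 between days of a cow. Removal of cow means by itself pushes such correlations below 0, so that neither value is to be read against 0. The members, the lists of cell type miRNAs and the tests were chosen with earlier results of these data known. The miRNAs named are the members, those of the lists, and for each member the 6 highest and 3 lowest in r within cows and the 4 highest without removal of cow means. miR-2401 was also named for its Cow 3 levels after these were seen, and miR-148b, miR-148c, miR-340 and let-7a-5p for their r. The tests were tested on simulated data. Alternatives covered variances, scaling, added constants of 1 and 50 CPM, a minimum of 7 in mean log2 CPM, limma-voom on reads, blocks, covariates and omitted libraries.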

Additional observations from a re-analysis of the deposited data

Results flagged for a closer look

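miR-181a in the evening library of Cow 1 on day 3 stood at 9.71 log2 CPM (126 reads), apart from the other 5 libraries of that cow, which lay between 10.24 and 10.56. The gap to the next library was 0.629 of the whole range of the 6 libraries, above the limit set for a group of that size. Of 24 groups examined in this way, this was the only one, and chance flags about 5% of groups. miR-181b was lowest in the same library among those of Cow 1, at 7.83.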

How the results depend on the processing

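Neither member passed the FDR for session, SCC, day or the interaction in any alternative. With each cow and day pair as a replicate block, the session differences stayed at -0.06 and 0.13 for miR-181a and miR-181b (adjusted p = 0.995 in limma for both), and the block changed no other call of the members, while the count of miRNAs with an SCC slope went from 3 to 0. Without Cow 2 the session difference of miR-181b became -0.045 and that of the ratio 0.012. With collection day as covariate the slope of miR-181a on SCC became -0.021. That was the low end over 18 alternatives, SCC ranks among them, and the high end was 0.22 (smallest adjusted p = 0.409 in limma). Without both libraries above 200000 cells/mL, an alternative added after the data were seen, the slope of miR-181b became -0.12 and that of the ratio 0.23, and without Cow 1 the slope of the ratio was 0.037. The within-cow r of the members became 0.726 with pair means, 0.618 without Cow 2, 0.585 without the Cow 2 pair of day 3 (added later) and 0.415 with equal medians. The cause of these changes was not tested.

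With single libraries left out in turn, the session difference ran from -0.12 to 0.0032 for miR-181a (reached without the Cow 3 evening library of day 1) and from 0.06 to 0.18 for miR-181b, and that of the ratio from -0.25 to -0.04. The slope on SCC ran from 0.04 to 0.13 for miR-181a, from -0.018 (without the Cow 2 evening library of day 3) to 0.17 for miR-181b and from -0.12 to 0.13 for the ratio, where it was 0.0058 without the Cow 1 morning library of day 3. The within-cow r ran from 0.263 to 0.514. The difference of Cow 3 from the other cows stayed between 1.54 and 1.82 for miR-181a and between 1.33 and 1.46 for miR-181b, and in the other alternatives between 1.53 and 1.81 and between 1.23 and 1.51. The count of miRNAs with an SCC slope ran from 0 to 6 when libraries were left out. It was 0 without the Cow 1 library of day 3 evening or day 4 morning, and 1 without the morning library of Cow 1 on day 3 or of Cow 2 on day 1 or 3. It was 5 without the day 2 morning library of Cow 2 or Cow 3 or the day 4 evening library of Cow 3, and 6 without the Cow 4 morning library of day 1. In the other alternatives it was 1 without the variance trend and with quantile normalization, 6 with the filter on a mean log2 value of 7 and without Cow 4, 5 without Cow 3, 4 with limma-voom, and 0 without Cow 1, without Cow 2, with day as covariate, with SCC ranks, without both libraries above 200000 cells/mL and without day 3. The count of miRNAs that differed by day ran from 0 to 1 (without the Cow 3 morning library of day 2) when libraries were left out, and was 2 with equal medians and 1 with the filter. The 15 to 142 reads of miR-181b per library limit its precision most.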

Other observations

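Without removal of cow means, miR-660 (r = 0.721), miR-10174-3p (0.709) and miR-363 (0.652) came next after miR-181b in likeness to miR-181a over the 28 libraries, and miR-2401 (0.742), miR-16b (0.732) and miR-10174-3p (0.658) came next after miR-181a in likeness to miR-181b. For miR-363 and miR-2401 this r was 0.196 and 0.170 with cow means removed, and in Cow 3 alone it was -0.112 and -0.512. miR-660, encoded with miR-532 and miR-502 on the X chromosome in mammals, kept an r of 0.612 with miR-181a within cows, where its r with miR-181b was 0.162.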
